A study of Homo sapiens with 6 samples.

Results

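The septins are a family of GTP-binding cytoskeletal proteins, and the account below follows 9 septin genes (SEPTIN2, SEPTIN3, SEPTIN5, SEPTIN6, SEPTIN7, SEPTIN8, SEPTIN9, SEPTIN10 and SEPTIN11) of the 62260 genes measured. The members were taken by gene symbol. SEPTIN6 was chosen by its low counts in the knockout in this same comparison, so its values are a description with no test. The other 8 were chosen as relatives that could show whether another septin was higher where SEPTIN6 was low. RNA was sequenced from TYK-nu, a human line labelled as ovarian cancer, in 2 groups: ZNFX1 KO cells, in which the gene of the RNA helicase-like zinc finger protein ZNFX1 had been knocked out, and wild-type (WT) cells. Both groups were grown without any drug, in the same medium with serum and antibiotics and within a limited passage number, and the labels give them the same batch. There were 3 libraries of each genotype. The labels name them biological replicates and do not say whether separate cultures stand behind them. The p-values below therefore speak only of the spread among these 6 libraries. Neither the number of KO clones nor the way the knockout was made is given in the labels, so the loss of ZNFX1 and anything else that sets the KO cells apart cannot be told apart here.

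The libraries held between 21413002 and 23494771 assigned fragments. Levels of a gene between libraries are given as CPM, counts relative to the library total after TMM scaling, and levels between genes as TPM, which also divides by transcript length. The targeted gene, ZNFX1, was at 82.7 ± 17.3 CPM in the KO and 149 ± 52.2 CPM in WT (SD, n = 3 each), with every KO library below every WT library, a difference that did not pass the threshold (log2 fold change -0.85, SE 0.27, edgeR quasi-likelihood test, adjusted p = 0.218). Which part of the gene was altered is not given, so its RNA level is an incomplete check of the labels. Of 7 ovarian carcinoma markers, KRT18, KRT8 and the gene WT1 were measured above the filter, PAX8, MUC16 and KRT7 were at or near 0, and EPCAM averaged 0 CPM in the KO and 1.18 CPM in WT. Of 6 endothelial and platelet markers 3 passed the filter and 2 had no fragment in any library. The endothelial genes CDH5 and PECAM1 among them were abundant in both groups. Fibroblast markers summed to at most 0.554 CPM in any library. Of the 7 leukocyte markers 3 had no fragment in any library, PTPRC and CD53 among them, and 2 passed the filter, both with positive estimates. The 7 leukocyte markers together, genes of cells in which SEPTIN6 is common, summed to 4.18 to 12.2 CPM in the KO libraries and 2.12 to 6.88 CPM in the WT libraries, and their part in the level of SEPTIN6 was not tested.

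Septin proteins assemble end to end into rods and filaments that lie on membranes, actin and microtubules, and they form a ring at the cleavage furrow of dividing cells. They fall into groups named after SEPTIN2, SEPTIN3, SEPTIN6 and SEPTIN7, and members of a group can take the same position in the rod. SEPTIN6, SEPTIN8, SEPTIN10 and SEPTIN11 make up the SEPTIN6 group among the members, SEPTIN2 and SEPTIN5 belong to the SEPTIN2 group, SEPTIN3 and SEPTIN9 to the SEPTIN3 group, and SEPTIN7 stands alone in its group and is needed for most septin rods.

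Because these genes are paralogs, how far their sequences can be told apart bears on every value below. The windows shown here are the coding sequence around the P-loop, the conserved stretch that binds the phosphates of GTP, for the 4 genes of the SEPTIN6 group. Each window has 60 bases, 5′ to 3′ on the coding strand, of which bases 19 to 42 are the 8 codons of the P-loop. Capitals mark bases that differ from SEPTIN6, whose own line therefore has none. The sequences are from GENCODE 29 transcripts (GRCh38), each window spans 1 splice junction, and they lie at chrX:119663637-119675572 on the minus strand for SEPTIN6, chr5:132764379-132765427 on the minus strand for SEPTIN8, chr2:109585281-109585739 on the minus strand for SEPTIN10 and chr4:76996521-77005641 on the plus strand for SEPTIN11.
SEPTIN6: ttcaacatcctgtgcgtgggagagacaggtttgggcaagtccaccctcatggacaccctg
SEPTIN8: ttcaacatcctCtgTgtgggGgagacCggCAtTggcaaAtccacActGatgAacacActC
SEPTIN10: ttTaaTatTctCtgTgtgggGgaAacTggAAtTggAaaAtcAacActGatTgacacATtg
SEPTIN11: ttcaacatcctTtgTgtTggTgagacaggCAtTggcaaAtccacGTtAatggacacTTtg
Even in this conserved stretch SEPTIN8 and SEPTIN11 each differed from SEPTIN6 at 13 of 60 bases and SEPTIN10 at 19. Over the aligned coding sequence SEPTIN11 was the closest to SEPTIN6, with 75.5% identical bases, followed by SEPTIN8 with 73.1% and SEPTIN10 with 70.9%. The longest run of bases shared between any transcript of SEPTIN6 and any of another member was 26 bases, with SEPTIN11. No word of 31 bases was shared between SEPTIN6 and any other member or any septin pseudogene transcript of GENCODE 29. Fragments of SEPTIN6 thus carry sequence that these relatives lack. SEPTIN7 was different in this respect, since 6.75% of its words of 31 bases also occur in transcripts of its pseudogenes. A row of SEPTIN7P9, the pseudogene row with the most fragments, is not in GENCODE 29 and was not compared.

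SEPTIN6 (ENSG00000125354.24, chrX:119615724-119693370, minus strand, GRCh38) was read at 29.9 CPM in ZNFX1 KO 1, 20.1 CPM in ZNFX1 KO 2 and 18.6 CPM in ZNFX1 KO 3, against 74.8 CPM in WT 1, 86.9 CPM in WT 2 and 99.9 CPM in WT 3. The lowest WT library was well above the highest KO library. The means were 22.8 ± 6.11 CPM in the KO and 87.2 ± 12.5 CPM in WT (SD, n = 3 each), so that the KO kept 26.2% of the WT level. The log2 fold change was -1.93 (SE 0.23), and it lay between -2.17 and -1.79 over the 15 alternative settings. Each value rests on between 357 fragments, the number in ZNFX1 KO 3, and 2191, the number in WT 3. In bulk RNA, fewer cells with SEPTIN6 and less SEPTIN6 RNA per cell cannot be told apart.

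**Figure D1:**
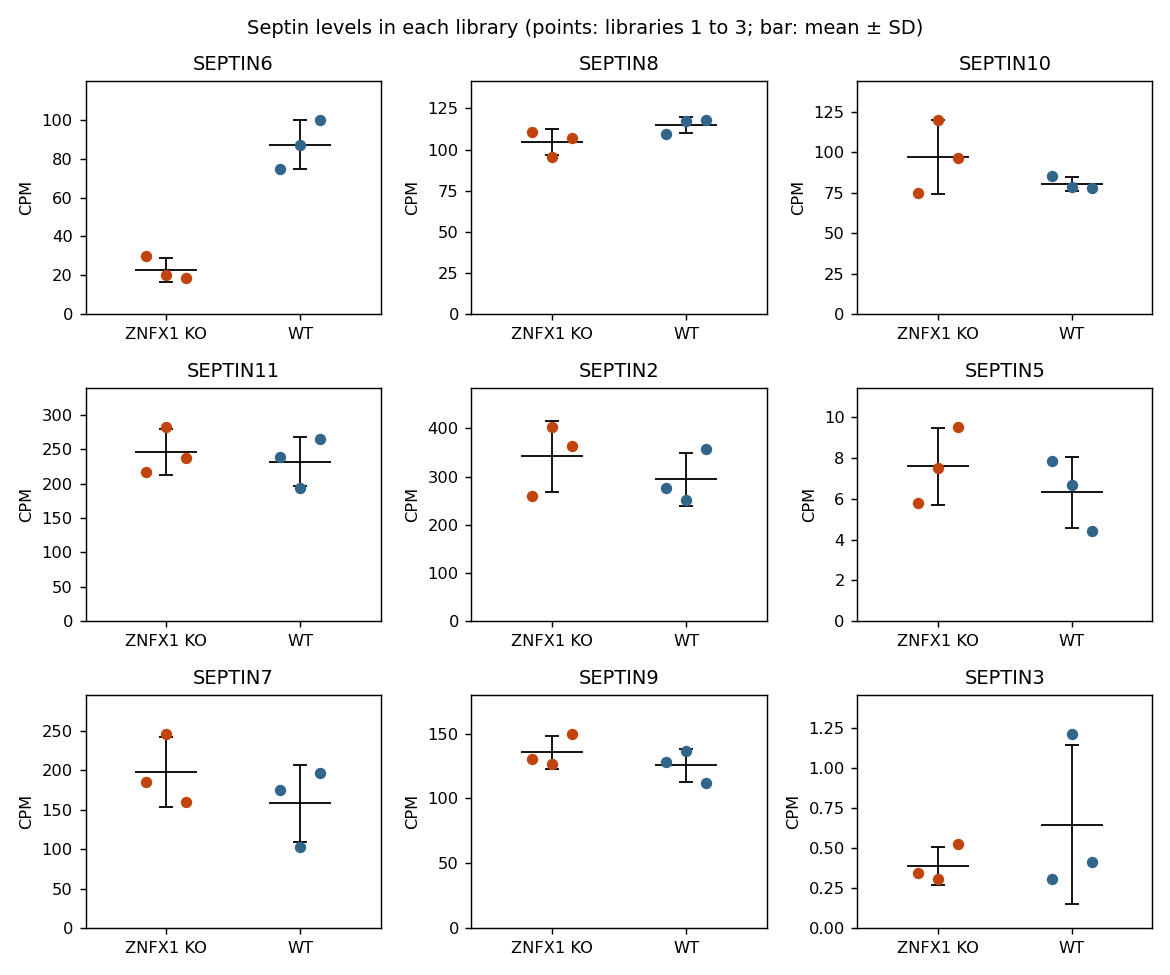
TMM-scaled CPM (vertical axis, from 0) of the 9 septin genes in the ZNFX1 KO libraries (left in each panel) and the WT libraries (right), with the points for libraries 1 to 3 from left to right and bars for mean ± SD. SEPTIN6 is the panel in which the KO points (18.6 to 29.9 CPM) lie apart from the WT points (74.8 to 99.9 CPM), while in the other 8 the groups overlap.

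None of the 3 relatives that share a group with SEPTIN6 passed the test, in either direction. SEPTIN11 (ENSG00000138758.12, chr4:76949703-77040384, plus strand), the most abundant of them, was at 218, 283 and 238 CPM in ZNFX1 KO 1, 2 and 3, against 238, 194 and 265 CPM in WT 1, 2 and 3. Its log2 fold change was 0.08 (SE 0.19, 95% interval -0.35 to 0.52, adjusted p = 0.852 by the edgeR test). The sign of this small difference turned when ZNFX1 KO 2 (-0.01) or WT 2 (-0.03) was left out. SEPTIN10 (ENSG00000186522.15, chr2:109542982-109614206, minus strand) was at 74.8, 120 and 96.3 CPM in ZNFX1 KO 1, 2 and 3, against 85.3, 78.3 and 77.9 CPM in WT 1, 2 and 3. Its log2 fold change of 0.27 (SE 0.20, 95% interval -0.18 to 0.72) did not pass (edgeR adjusted p = 0.533), and ZNFX1 KO 1 lay below every WT library. The estimate was 0.43 without ZNFX1 KO 1 and 0.10 without ZNFX1 KO 2.

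SEPTIN8 (ENSG00000164402.14, chr5:132750817-132807241, minus strand) varied least within the group, and it was the tested member other than SEPTIN6 with a negative estimate. It was at 111, 95.5 and 107 CPM in ZNFX1 KO 1, 2 and 3, against 110, 117 and 118 CPM in WT 1, 2 and 3 (log2 fold change -0.14, SE 0.15, 95% interval -0.48 to 0.21, edgeR adjusted p = 0.675). The upper ends of the intervals correspond to a KO level of at most 1.43 times WT for SEPTIN11, 1.65 times for SEPTIN10 and 1.15 times for SEPTIN8, and a KO level above WT but below these bounds could not be told from no difference.

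SEPTIN2 (ENSG00000168385.18, chr2:241315100-241354027, plus strand), whose protein sits beside SEPTIN6 in the rod, had the highest gene-row TPM of the family. It was at 259, 404 and 363 CPM in ZNFX1 KO 1, 2 and 3, against 276, 251 and 357 CPM in WT 1, 2 and 3. ZNFX1 KO 1 thus lay within the WT range, and WT 1 and WT 3 lay within the KO range. Its log2 fold change was 0.21 (SE 0.22, 95% interval -0.29 to 0.72, edgeR adjusted p = 0.657). It was 0.38 without ZNFX1 KO 1, 0.09 without ZNFX1 KO 2, 0.11 without WT 2 and 0.39 without WT 3. SEPTIN5 (ENSG00000184702.20, chr22:19714464-19724224, plus strand), a member of the same group best known from neurons and platelets, was low, at 7.61 ± 1.89 CPM in the KO and 6.32 ± 1.75 CPM in WT (SD, n = 3 each), a log2 difference of 0.27 (SE 0.30, 95% interval -0.41 to 0.94, edgeR adjusted p = 0.677). Leaving out 1 library moved this to 0.44 without ZNFX1 KO 1, 0.09 without ZNFX1 KO 3, 0.46 without WT 1 and 0.08 without WT 3. Some SEPTIN5 transcripts stand in rows of their own, outside the gene row tested, and these held 25.5%, 24.3% and 21.2% of SEPTIN5 fragments in ZNFX1 KO 1, 2 and 3, against 4.16%, 20.2% and 11.6% in WT 1, 2 and 3. The lowest KO share, 21.2%, lay close to the highest WT share, 20.2%. These shares rest on at most 49.2 fragments in a library and were not tested. With these rows joined the SEPTIN5 log2 fold change was 0.48 (edgeR adjusted p = 0.394). GP1BB, a platelet receptor gene that overlaps the 3′ end of SEPTIN5 on the same strand, had no fragment in any KO library and at most 9 in a WT library.

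SEPTIN9 (ENSG00000184640.20, chr17:77280569-77500596, plus strand), the abundant member of the SEPTIN3 group and a gene known for many alternative starts, was at 130, 127 and 150 CPM in ZNFX1 KO 1, 2 and 3, against 128, 137 and 112 CPM in WT 1, 2 and 3 (log2 fold change 0.11, SE 0.16, 95% interval -0.26 to 0.49, edgeR adjusted p = 0.760). Separate rows of SEPTIN9 transcripts, outside its gene row, held between 30.4 and 57.8 fragments in a library, and a shift between isoforms was not analysed here. SEPTIN3 (ENSG00000100167.21, chr22:41969475-41998221, plus strand), a neuronal septin, had 7, 6 and 10 fragments in ZNFX1 KO 1, 2 and 3, against 6, 24 and 9 in WT 1, 2 and 3, and it was the 1 member that did not pass the filter on low counts. Its highest value was in WT 2, and the others lay close together. Among the neuron markers SNAP25, a synaptic membrane fusion protein, was low throughout, with means of 0.0324 CPM in the KO and 1.38 CPM in WT. Its KO mean lay below the level of 3 counts in a KO library (0.144 to 0.154 CPM). SNAP25 thus passed the filter through its WT counts, and no test is read from it. The 7 neuron markers, mostly the tubulin TUBB3, summed to 149.7 to 215.2 CPM in the KO libraries and 174.9 to 244.3 CPM in the WT libraries.

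SEPTIN7 (ENSG00000122545.22, chr7:35800932-35907105, plus strand) varied by 22.5% in the KO and 31.01% in WT (coefficient of variation of CPM, n = 3 each), the WT value being the highest among the 8 tested members. Its gene row stood at 186, 247 and 161 CPM in ZNFX1 KO 1, 2 and 3, against 175, 103 and 197 CPM in WT 1, 2 and 3. WT 2 was the low library. The log2 fold change was 0.32 (SE 0.27, 95% interval -0.30 to 0.94, edgeR adjusted p = 0.583). It was 0.14 without ZNFX1 KO 2, 0.09 without WT 2 and 0.52 without WT 3. The gene row is not the whole of SEPTIN7 in these files, because the authors' quantification left 13 of its transcripts as rows of their own. The largest, ENST00000635175.1, annotated as a target of nonsense-mediated decay, held 1265, 1369 and 1807 fragments in ZNFX1 KO 1, 2 and 3, against 1049, 1593 and 1331 in WT 1, 2 and 3. This row made up 23.3%, 20.7% and 35.0% of all SEPTIN7 fragments in ZNFX1 KO 1, 2 and 3, against 21.9%, 40.4% and 21.9% in WT 1, 2 and 3. Its share was thus highest in WT 2 and ZNFX1 KO 3, the library of each group in which the gene row was lowest, and did not separate the genotypes. With all 13 rows added, SEPTIN7 was at 258 ± 30.6 CPM in the KO and 224 ± 38.1 CPM in WT (SD, n = 3 each, here without TMM scaling). For SEPTIN6 such rows held at most 16.2 fragments in any library (WT 3) and at most 0.801% of its fragments (WT 2).

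**Figure D2:**
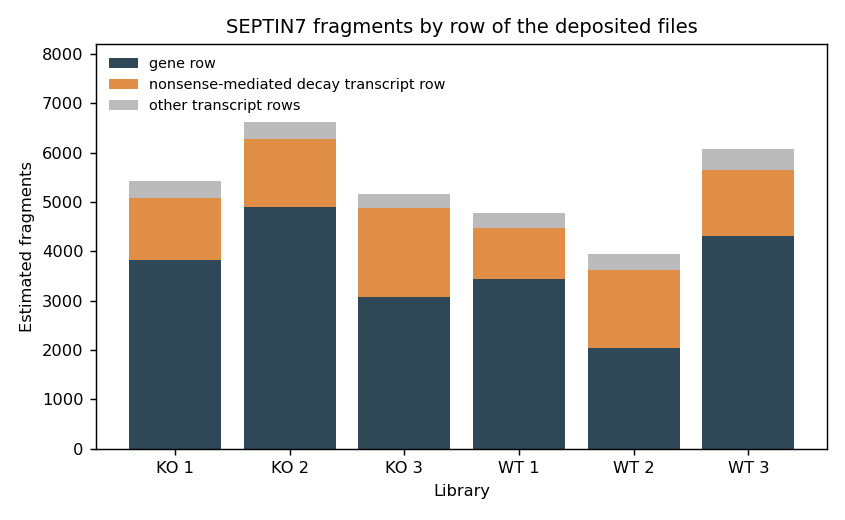
Estimated fragments of SEPTIN7 (vertical axis) in each library, split into the gene row, the row of the nonsense-mediated decay transcript and the other transcript rows, with the KO libraries on the left. The decay transcript held between 1049 fragments in WT 1 and 1807 in ZNFX1 KO 3, and its share was largest in WT 2, at 40.4%.

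Taking the 8 members other than SEPTIN6 as a whole, 7 were tested and 0 passed the threshold of 0.05 on edgeR's adjusted p, where 0.727% of all 14166 tested genes passed. None of the 7 reached an unadjusted p under 0.05, which 15.1% of all tested genes did, and DESeq2 called 0 of them as well. In none of the 7 did the groups separate, while they separated in 20.2% of all tested genes. Of the 7 estimates 6 were positive and 1 negative, with a median of 0.21, and the median over all tested genes was -0.01. A missed threshold does not show equal levels, and the intervals above say how large a difference remains possible for each gene.

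**Figure D3:**
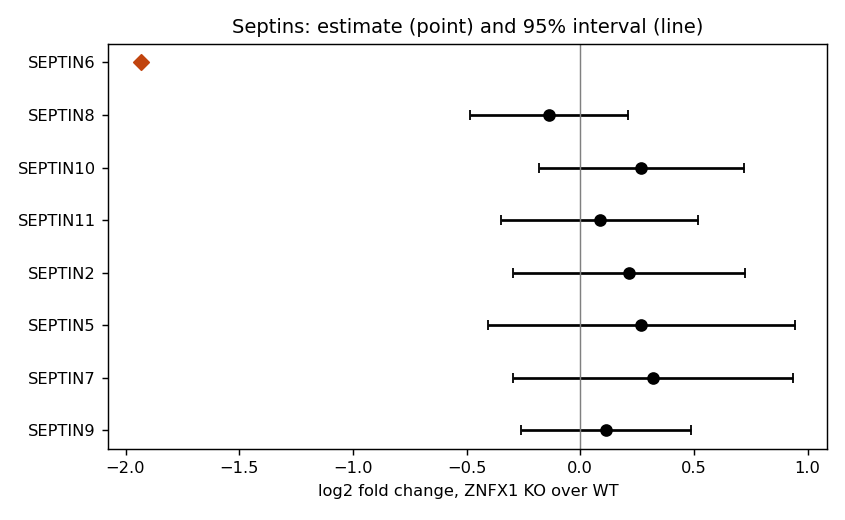
Log2 fold change of each tested septin in ZNFX1 KO over WT (horizontal axis), with lines for the 95% interval of the edgeR fit. SEPTIN6, at -1.93, is drawn without an interval because it was chosen for this difference, and the intervals of the other 7 all include 0.

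Per length, SEPTIN2 and SEPTIN7 had the most RNA in both groups. On the gene rows, in the KO, SEPTIN2 averaged 72.8 ± 22.5 TPM, SEPTIN7 57.4 ± 19.2, SEPTIN11 36.8 ± 8.32, SEPTIN10 30.2 ± 9.43, SEPTIN9 28.5 ± 2.87, SEPTIN8 19.4 ± 0.901, SEPTIN6 5.08 ± 1.19, SEPTIN5 2.68 ± 0.704 and SEPTIN3 0.0607 ± 0.0171 TPM (SD, n = 3). In WT, SEPTIN2 averaged 62.0 ± 21.4 TPM, SEPTIN7 45.8 ± 18.96, SEPTIN11 33.8 ± 8.98, SEPTIN9 25.6 ± 1.86, SEPTIN10 23.7 ± 3.19, SEPTIN8 21.2 ± 2.92, SEPTIN6 20.1 ± 5.02, SEPTIN5 2.22 ± 0.371 and SEPTIN3 0.0945 ± 0.0657 TPM (SD, n = 3). Within single libraries this order held for every pair of septins in all 3 libraries of a group, except that SEPTIN10 was above SEPTIN9 in 2 of 3 KO libraries, SEPTIN9 above SEPTIN10 in 2 of 3 WT libraries and SEPTIN8 above SEPTIN6 in 2 of 3 WT libraries. With the separate transcript rows joined, SEPTIN7 came before SEPTIN2 on average, at 106.8 ± 20.7 TPM against 95.9 ± 30.7 TPM in the KO and 91.8 ± 21.1 TPM against 81.9 ± 25.8 TPM in WT (SD, n = 3 each). SEPTIN7 was then above SEPTIN2 in 2 of 3 KO libraries and 3 of 3 WT libraries, and SEPTIN6 above SEPTIN5 in 2 of 3 KO libraries. On the gene rows of the KO, SEPTIN6 stood between SEPTIN8 and SEPTIN5, with 3.98 to 6.34 TPM against 18.5 to 20.3 TPM for SEPTIN8 and 1.90 to 3.25 TPM for SEPTIN5.

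As a share of the TPM of all 9 members, which does not depend on the scaling of a library, SEPTIN6 held 3.17%, 1.55% and 1.65% in ZNFX1 KO 1, 2 and 3, against 7.64%, 9.69% and 8.54% in WT 1, 2 and 3. Within the SEPTIN6 group its share was 5.80 ± 2.35% in the KO and 20.3 ± 1.78% in WT (SD, n = 3 each). SEPTIN11 made up 40.1 ± 1.18% of the group in the KO and 33.95 ± 2.86% in WT, and SEPTIN10 32.5 ± 4.26% in the KO and 24.2 ± 1.55% in WT. The share of SEPTIN8 was 21.6 ± 3.20% in the KO and 21.6 ± 1.66% in WT. The whole SEPTIN6 group held 36.4 ± 1.40% of septin TPM in the KO and 42.5 ± 2.65% in WT. Since shares add to a fixed total, a lower share of SEPTIN6 has to appear as a higher share elsewhere, and no test was made of these shares. With the separate transcript rows joined, SEPTIN6 held 1.61 ± 0.730% of septin TPM in the KO and 6.48 ± 0.580% in WT, and SEPTIN11 12.5 ± 1.14% in the KO and 13.6 ± 0.808% in WT (SD, n = 3 each).

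**Figure D4:**
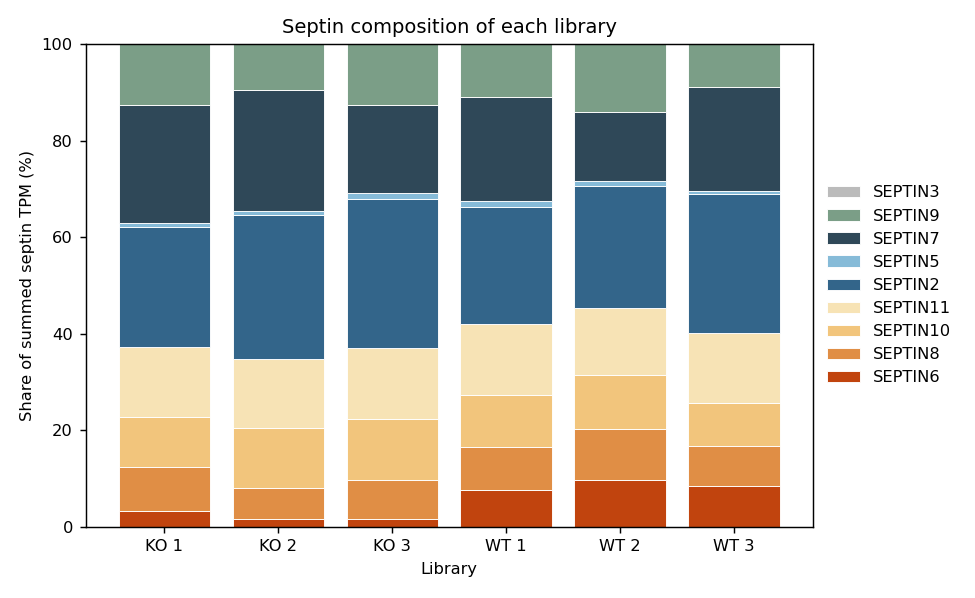
Share of the summed TPM of the 9 septins (vertical axis, percent) held by each gene in each library, with the KO libraries on the left and the 4 genes of the SEPTIN6 group at the bottom of each bar. SEPTIN6 holds 1.55% to 3.17% in the KO libraries and 7.64% to 9.69% in the WT libraries, and SEPTIN11 on its gene row holds 14.4% to 14.8% in the KO libraries and 13.9% to 14.7% in the WT libraries.

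Summed TPM itself differed within groups more than between them. It was 200, 317 and 241 TPM for the 9 septins in ZNFX1 KO 1, 2 and 3, against 212, 189 and 302 TPM in WT 1, 2 and 3. Ribosomal and other small structured RNAs took 56.6% to 61.8% of TPM in the KO libraries and 55.8% to 66.2% in the WT libraries, least in WT 3 and ZNFX1 KO 2, the libraries with the highest septin sums. The part of these RNAs in the septin sums was not tested.

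The family has 13 genes, and the other 4 were nearly silent. SEPTIN1 and SEPTIN12 had 0 fragments on their gene rows in all 6 libraries, which allows up to 0.143 to 0.157 CPM in a library (3 counts of its total, counting error only), though separate transcript rows of SEPTIN1 held at most 3 fragments. SEPTIN4 had at most 2 fragments, and SEPTIN14, a relative of SEPTIN6 known mainly from testis, was at 1.08 ± 0.512 CPM in the KO and 1.07 ± 0.142 CPM in WT (SD, n = 3 each). Of 32 septin pseudogene rows 8 held any fragment and 2 more than 10 in a library. These were SEPTIN14P12 and SEPTIN7P9, the second with 22 to 36 fragments per library.

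The promoter of the gene that differed is shown because SEPTIN6 lies in a stretch of chromosome X described next. These are the 250 bases upstream of the SEPTIN6 start from RefSeq (GRCh38.p14), chrX:119693169-119693418, minus strand, 5′ to 3′, with CG dinucleotides in capitals. GENCODE 29 places the start of the gene further upstream, so 202 of these bases lie inside the gene as given above.
SEPTIN6 upstream: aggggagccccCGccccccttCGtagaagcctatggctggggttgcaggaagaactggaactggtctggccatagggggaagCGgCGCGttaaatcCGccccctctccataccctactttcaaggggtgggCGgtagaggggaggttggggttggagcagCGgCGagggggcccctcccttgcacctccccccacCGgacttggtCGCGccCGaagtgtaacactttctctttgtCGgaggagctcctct
It holds 14 CG dinucleotides, against a median of 11 over 35116 human promoters of the same length, 44.8% of which have as many or more.

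The genes around SEPTIN6 on chromosome X had negative estimates as well, all but 1 of them closer to 0 than that of SEPTIN6. The nearest tested protein-coding genes on either side were UBE2A, a ubiquitin-conjugating enzyme (log2 fold change -0.34, SE 0.18), NKRF, a repressor of NF-kB targets (-0.21, SE 0.22), RPL39, a ribosomal protein (-0.55, SE 0.26), and UPF3B, a factor of nonsense-mediated decay (-0.45, SE 0.22). None of these 4 passed the threshold, with edgeR adjusted p from 0.359 to 0.661. Within 2 Mb of the start of SEPTIN6 there were 19 tested protein-coding genes. All 19 had a negative estimate with a median of -0.34, and 0 passed, where 0.727% of all tested genes did. An unadjusted p under 0.05 was found for 6 of the 19 and for 15.1% of all tested genes. The lowest estimate, named for that reason alone, was that of DOCK11, an activator of CDC42, at -2.44 (SE 1.01). DOCK11 had 43.8, 6 and 0 fragments in ZNFX1 KO 1, 2 and 3, against 61.2, 155 and 53.6 in WT 1, 2 and 3. It thus passed the filter through its WT counts, and no test is read from it alone.

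This pattern, looked at over the whole chromosome after the neighbours had been seen, extended far beyond SEPTIN6. Of 375 other tested protein-coding genes of X, 301 had a negative estimate and 74 a positive one, with a median log2 fold change of -0.39. The autosomes had a median of 0.02, and the 22 single autosomes ranged from -0.17 to 0.18. Among the X genes 11 fell and 0 rose by edgeR's adjusted p, where 0.459% of all tested genes fell. In the first 30 Mb of X, 24 of 62 genes were negative (median 0.15), and in the rest, which holds SEPTIN6, 277 of 313 (median -0.43). The libraries did not move alike along the chromosome. After 110 Mb, the end with SEPTIN6, the median deviation of X genes from their mean over the 6 libraries (log2-CPM) was 0.11, -0.34 and -0.37 in ZNFX1 KO 1, 2 and 3, against 0.11, 0.27 and 0.28 in WT 1, 2 and 3. Between 30 and 110 Mb it was -0.19, -0.19 and -0.25 in the KO libraries and 0.18, 0.28 and 0.23 in the WT libraries. Of the 375 genes, 11 had an estimate as low as that of SEPTIN6 or lower. The part of the X-wide difference in the level of SEPTIN6 was not tested.

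**Figure D5:**
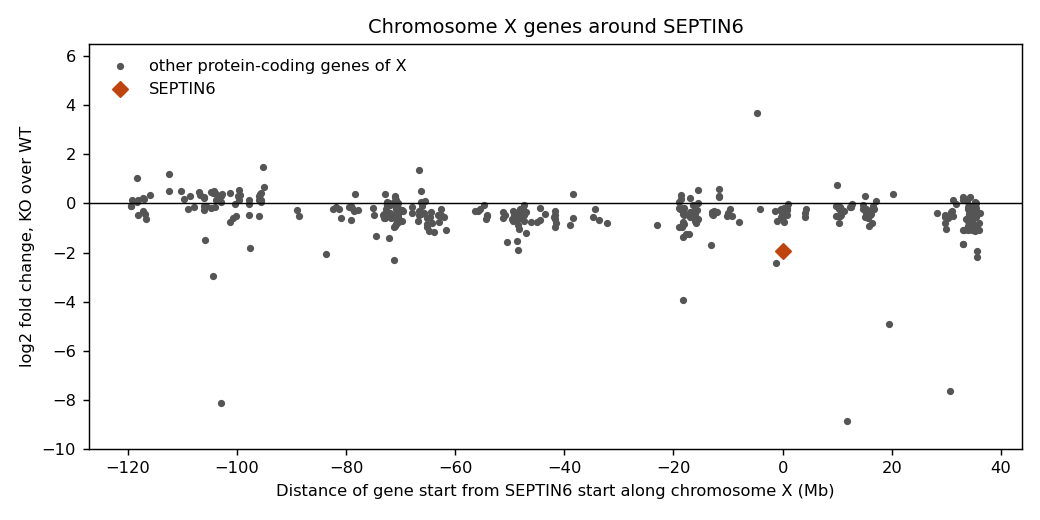
Log2 fold change in ZNFX1 KO over WT (vertical axis) of the tested protein-coding genes of chromosome X against the distance of their start from that of SEPTIN6 in Mb (horizontal axis). SEPTIN6 is the diamond at -1.93, and most of the 313 other genes after the first 30 Mb of the chromosome lie below 0.

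By the likeness of log2-CPM over the 6 libraries, the 5 protein-coding genes closest to SEPTIN6 among 10030 with a mean of at least 4 CPM included more X genes. FGF13, an intracellular fibroblast growth factor homologue on X, had a Pearson r of 0.996. It stood at 1.80, 0.554 and 0.574 CPM in ZNFX1 KO 1, 2 and 3, against 26.8, 27.3 and 35.7 CPM in WT 1, 2 and 3. DRP2, a dystrophin-related protein on X, had an r of 0.991 and was at 54.7 ± 6.47 CPM in the KO and 105 ± 2.69 CPM in WT (SD, n = 3 each). VPS35L, an endosomal sorting protein on chromosome 16 (r of 0.990), TAL1, a haematopoietic transcription factor on chromosome 1 (r of 0.989), and CEP126, a centrosomal protein on chromosome 11 (r of 0.988), completed the list. TAL1 had 12, 0 and 0 fragments in ZNFX1 KO 1, 2 and 3, and was at 11.1 ± 2.04 CPM in WT (SD, n = 3). FGF13 and TAL1 thus reached the mean of 4 CPM through their WT values. An r of at least 0.9 was reached by 200 of the 10030 genes. Since all points share the split between the groups, these r values only describe the pattern. Over the same 6 libraries SEPTIN8 had an r of 0.78 with SEPTIN6, and the other 6 tested septins had negative values between -0.66 for SEPTIN10 and -0.30 for SEPTIN11.

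None of the 75 tested genes that septins work with or beside, in 5 lists, passed the edgeR test. Over all tested genes 0.727% passed, so a count of 0 is near that share. Of the 75, 17 had an unadjusted p under 0.05, where 15.1% of all tested genes did. DESeq2, which called 4.09% of all genes it tested, called 4 of them, ACTN4, MYL12A and TUBB6 higher and BAIAP2 lower. Of 6 genes for CDC42 and its BORG effectors, which bind septins, 0 passed, with 2 positive and 4 negative estimates and a median of -0.32. The most abundant were CDC42EP3, at 322 ± 90.1 CPM in the KO and 300 ± 52.7 CPM in WT, and CDC42, at 111 ± 4.42 CPM in the KO and 123 ± 24.04 CPM in WT (SD, n = 3 each). Of 9 exocyst subunits, which tether vesicles at septin-rich membranes, 0 passed, with a median of 0.03. EXOC4 was at 153 ± 1.64 CPM in the KO and 162 ± 27.3 CPM in WT, and EXOC1 at 67.1 ± 8.97 CPM in the KO and 71.4 ± 9.67 CPM in WT. Of 10 tested other partners 0 passed (median -0.27), among them MAP4, a microtubule protein whose binding septins can block, at 0.15 (SE 0.15, edgeR adjusted p = 0.634), and CBL, a ubiquitin ligase, at -0.30 (SE 0.24, edgeR adjusted p = 0.567).

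Of 22 cytokinesis genes 0 passed, where 0.727% of all tested genes did, and 16 had a positive estimate, with a median of 0.42. MYH9, the heavy chain of nonmuscle myosin, was at 1115 ± 150 CPM in the KO and 915 ± 93.7 CPM in WT, and RHOA, the GTPase that starts furrowing, at 355 ± 18.6 CPM in the KO and 338 ± 25.4 CPM in WT (SD, n = 3 each). The groups stood apart in 7 of the 22, and in 20.2% of all tested genes. Among the 7, ANLN, ECT2, RACGAP1, CEP55 and CDCA8 were higher in the KO, and MYH10 and KLHL21 lower. ANLN, the furrow scaffold anillin that recruits septins, is described further. It had 393, 397 and 383 CPM in ZNFX1 KO 1, 2 and 3, against 195, 102 and 315 CPM in WT 1, 2 and 3, and did not pass (log2 fold change 0.94, SE 0.35, edgeR adjusted p = 0.280). WT 2 was the low library for the whole list, with a median deviation of -0.86 against 0.16 to 0.29 in the KO libraries, -0.03 in WT 1 and 0.22 in WT 3, and without it the median log2 fold change of the list was 0.15. It was also the library lowest in the SEPTIN7 gene row, in SEPTIN2 and in SEPTIN11, and its part in these differences was not tested.

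Other cytoskeletal genes were compared in the same way. Of 28 tested genes for actin, tubulin, intermediate filaments and proteins that bind actin 0 passed, where 0.727% of all tested genes did. Among the 28, 24 had a positive estimate and the median was 0.51, or 0.31 without WT 2. VIM, the intermediate filament vimentin, was at 4045 ± 1174 CPM in the KO and 4153 ± 1045 CPM in WT, and ACTB, beta actin, at 4574 ± 340 CPM in the KO and 3224 ± 1010 CPM in WT (SD, n = 3 each). TUBB6, a beta tubulin chosen after its values were seen, had the lowest adjusted p of the list (log2 fold change 0.98, SE 0.20, edgeR adjusted p = 0.0715). Without WT 3, when 1315 genes or 9.02% of those tested were called over the whole table, the 5 lists together held 13 called genes, 10 higher and 3 lower, among them ANLN, ACTN4 and TUBB6 higher and CDC42EP4 and BAIAP2 lower.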

How the data were processed

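RNA of 6 TYK-nu libraries was made with a stranded total RNA kit and sequenced in pairs, per the labels' protocols. The deposited files hold estimated counts and TPM, quantified by the authors using Salmon, per the submitters' processing notes. FastQC, Trimmomatic and DESeq2 are also named in the submitters' processing notes. The sources used here do not give versions, genome build, annotation or use of strand. Each file has 62260 gene rows and 134909 transcript rows not joined to a gene, left out of the main test.

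Estimated counts were rounded. Genes passing filterByExpr (14166) were scaled by TMM and tested with edgeR 4.0.16 (quasi-likelihood, genotype only, two-sided, Benjamini-Hochberg over all genes, threshold 0.05), after a test on simulated data. Intervals are 95% from that fit. TPM shares were computed from the deposited TPM. Alternatives used other scaling and filters, DESeq2, limma on TPM, joined transcript rows, a replicate block and each library left out in turn. Symbols came from a gene table by Ensembl ID and positions from GENCODE 29, which may not be the release the authors used. Library pairs differed by more than sampling noise. Members and lists were chosen with earlier results of these data known. Named genes were ZNFX1, all septins, up to 3 called or else the 2 most abundant genes of each list, the 5 genes most like SEPTIN6, its 2 nearest neighbours on each side, and GP1BB. ANLN and the other cytokinesis genes whose groups stood apart fall outside this rule. So do TUBB6, DOCK11, SNAP25, the markers and the genes called only under an alternative. All of these were picked with values known, as was the chromosome X summary. Columns of per-sample values not used: 0.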

Additional observations from a re-analysis of the deposited data

How the results depend on the processing

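The number of genes passing the threshold over the whole table depended on the setting. It was 103 in the fit reported, 602 with no filter, 579 with DESeq2, 187 with transcript rows joined, 66 with limma on log2(TPM + 0.1), 48 with limma on log2(TPM + 1) and 14 in the fit with a replicate block. With 1 library removed it lay between 2 and 1315 (110, 2 and 7 without ZNFX1 KO 1, 2 and 3 in turn, and 24, 57 and 1315 without WT 1, 2 and 3 in turn). The count of 0 among the other septins held in all 15 alternatives. SEPTIN6 kept its direction in all of them, but they refit the libraries in which it was chosen for this difference, so this adds no support. With joined rows the SEPTIN6 share of septin TPM differed by -4.87 percentage points in place of -6.50, and that of SEPTIN11 by -1.17 in place of 0.18. The SEPTIN11 log2 fold change ranged from -0.028 to 0.21 when 1 library was left out and was -0.014 without ZNFX1 KO 2, that of SEPTIN8 from -0.18 to -0.06 and that of SEPTIN9 from 0.05 to 0.18. Calls in the partner and cytoskeleton lists were 0 in the fit reported, 3 with no filter, 4 with DESeq2, 0 with the replicate block and 0 to 13 with 1 library left out, 13 being without WT 3. The causes were not tested. The labels state no pairing of the libraries by replicate number. Deviations of same-numbered libraries from their group mean correlated at 0.129, -0.0405 and 0.00691, and those of differently numbered ones at -0.096 to 0.0927. With 3 libraries a group these values cannot exclude a pairing. Of the septins, SEPTIN3 was too low to test, and 3 libraries a group limit all intervals.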
